A study of Mus musculus with 12 samples.

Results

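Expression of 10 listed genes of necroptosis and death receptor signalling was examined in L929 cells: Ripk1, Ripk3, Mlkl, Zbp1, Casp8, Fadd, Cflar, Cyld, Tnfrsf1a and Birc2. The genes were listed by mouse symbol for their known roles, with earlier results of these data known, by a rule that sets no threshold on a measured value, and were found through the Entrez identifiers of the deposited table. Of the 10, 9 were found among the 17571 genes of the table, and all 9 were among the 10412 genes tested, those with an FPKM (a read abundance scaled to transcript length and library size) that reached 1 or more in 3 or more libraries. Zbp1 passed this filter only through the 3 libraries in which it was high, so its place among the tested genes is tied to those libraries. The expression of Cyld was not analysed here.

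Necroptosis is a lytic form of cell death that starts when a death receptor such as the TNF receptor is engaged while caspase-8 is blocked. RIPK1 and RIPK3 then assemble through their RHIM domains, and RIPK3 phosphorylates MLKL, which ruptures the plasma membrane. ZBP1, a sensor of Z-form nucleic acids with its own RHIM, can engage RIPK3 without a death receptor, and its gene and that of MLKL are known targets of interferon. L929 is a mouse fibroblast line of the C3H/An strain and a standard line for the study of TNF-induced necroptosis.

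RNA was profiled by RNA-seq in 4 groups of 3 libraries, all from L929 cells. The study asked how an inhibitor of TBK1, a kinase downstream of the DNA sensor cGAS, alters the response to transfected plasmid DNA. DMSO cells received the vehicle alone, and pEGFP-N1 cells received the vehicle for 1 h and then the pEGFP-N1 plasmid for 6 h. BX795 cells received 0.5 µM BX795, and BX795+pEGFP-N1 cells received 0.5 µM BX795 for 1 h and then the plasmid for 6 h. A treatment text shared by all the labels mentions transfection, so what the groups without plasmid received in its place was not stated. Nothing in the labels says that the 3 libraries of a group came from separate cultures, so the p-values below measure the spread between these libraries, which may be technical. FPKM gives no read totals, and the depth of each library is unknown.

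2 libraries went against their labels. Across 282 genes, none of them a listed gene, that separated the BX795 from the DMSO libraries by at least 0.5 on the log2(FPKM + 1) scale, the library labelled pEGFP-N1 replicate 2 was nearer to BX795 in 97.2%, against 12.1% and 14.5% in replicates 1 and 3. The library labelled BX795+pEGFP-N1 replicate 1 was nearer to BX795 in 12.8%, against 90.8% and 77.7% in replicates 2 and 3. Ifit1, an interferon-induced gene, was at 96.7 and 95.2 FPKM in pEGFP-N1 replicates 1 and 3, at 92.6 FPKM in the library labelled BX795+pEGFP-N1 replicate 1, and at most 0.57 FPKM in the other 9 libraries, among them pEGFP-N1 replicate 2, where it was listed at 0. In both measures the library labelled pEGFP-N1 replicate 2 lay with the libraries labelled as given BX795, with or without plasmid. Its closest library across genes was BX795 replicate 2 (r = 0.997), and neither measure was chosen to tell BX795 from BX795+pEGFP-N1. The library labelled BX795+pEGFP-N1 replicate 1 lay with pEGFP-N1 replicates 1 and 3. Whether the 2 libraries were exchanged was not tested. The labels were kept in every comparison, and the fold changes, calls, spreads, correlations and separations that rest on these libraries are also given for the other 10 libraries. Leaving out both was decided after their values were seen, and Mlkl and Zbp1 differ between libraries along with the genes that set these libraries apart, so p-values from the 10 libraries describe those libraries and are not independent support. BX795+pEGFP-N1 replicate 3 also stood apart, with the lowest summed FPKM of all (467348, against up to 513761) and the lowest correlation with its closest library (r = 0.987 across genes).

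The 9 genes spanned more than 2 orders of magnitude in the DMSO cells. Tnfrsf1a, the TNF receptor, had the highest level at 60.2 ± 0.308 FPKM (SD, n = 3), followed by Ripk3 at 37.2 ± 0.647 FPKM. Mlkl at 18.7 ± 2.02 FPKM and Ripk1 at 17.1 ± 1.09 FPKM overlapped in their libraries. Casp8 at 11.5 ± 0.252, Cflar at 9.85 ± 0.365, Fadd at 5.91 ± 0.303 and Birc2 at 4.44 ± 0.345 FPKM followed with no overlap between neighbours, and Zbp1 was last at 0.14 ± 0.0557 FPKM. FPKM is scaled to length, so these levels can be set side by side between genes. In the BX795 libraries Mlkl, at 11.4 ± 0.382 FPKM, stood below Ripk1, at 16.1 ± 0.359 FPKM, without overlap.

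Spread over the 12 libraries was wider for Mlkl and Zbp1 than for the other 7 genes. The coefficient of variation was 48.4% for Mlkl, higher than in 98.4% of the tested genes, and 160% for Zbp1. The filter admitted Zbp1 only through its high libraries, which fixed a wide spread in advance, so its rank among the tested genes is not given. It was 5.96% for Ripk3 and 6.46% for Ripk1, below the median of 10.4% over all tested genes. It lay between 9.13% and 15.5% for Fadd, Tnfrsf1a, Casp8, Cflar and Birc2. The coefficient of variation over the 10 libraries was 47.2% for Mlkl, 180% for Zbp1, 5.88% for Ripk3, 6.16% for Ripk1 and 7.75% to 14.6% for the other 5. These values describe the libraries without a test, and conditions contribute to them as well as replicate error.

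**Figure D1:**
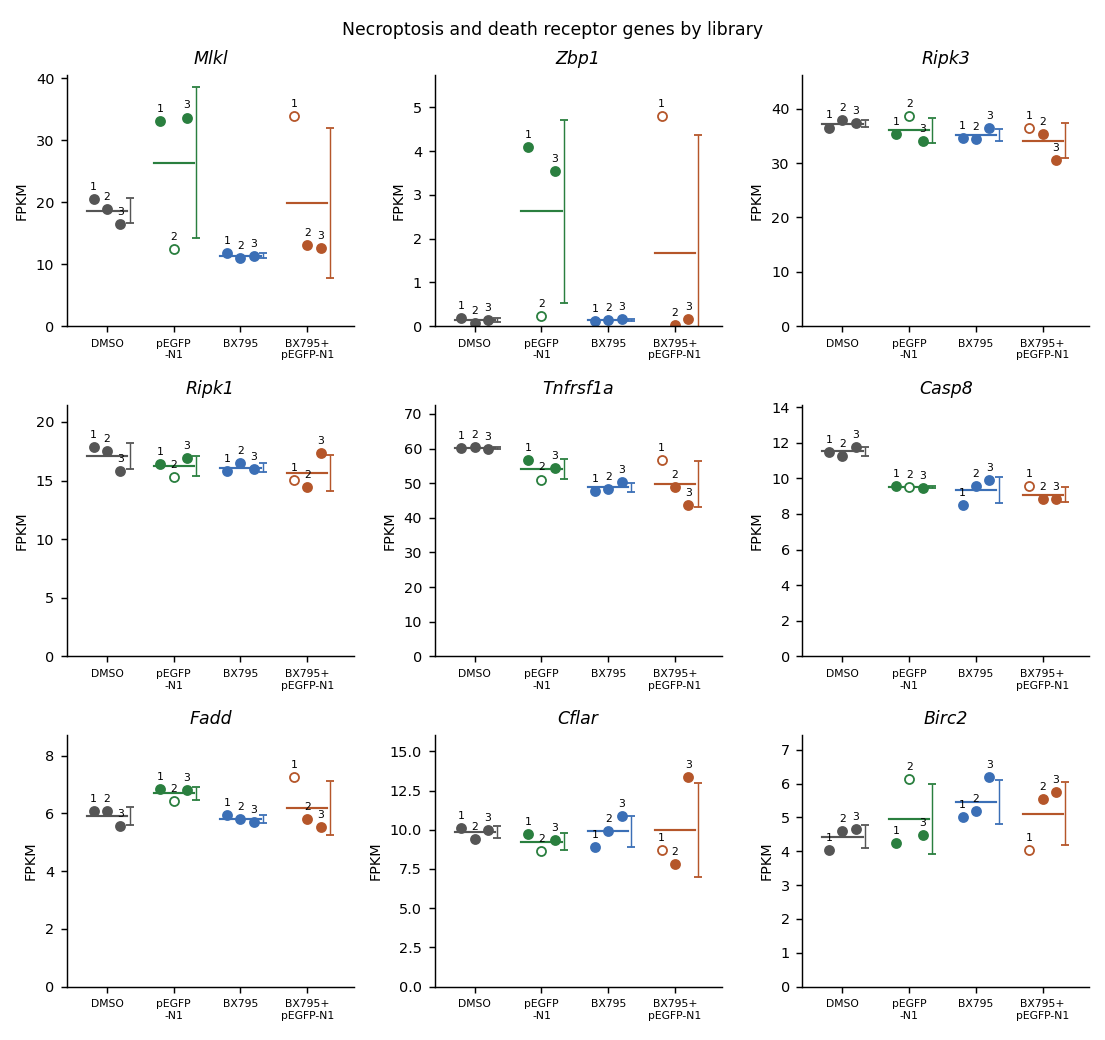
FPKM of the 9 genes in each of the 12 libraries, by labelled group. Points are libraries with their replicate number, open points are the library labelled pEGFP-N1 replicate 2 and the library labelled BX795+pEGFP-N1 replicate 1, horizontal lines are group means and bars beside them are 1 SD, cut at 0. Mlkl reached 33.2 to 33.8 FPKM and Zbp1 3.54 to 4.79 FPKM in the same 3 libraries, while Ripk3 stayed within 30.5 to 38.6 FPKM.

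Mlkl, the pore-forming effector of necroptosis, had the widest relative range of the 8 genes above 1 FPKM in every library, from 11 to 33.8 FPKM. Mlkl (Entrez 74568) lies on the minus strand of chromosome 8 at 111311797 to 111338177 (GRCm38). Its level was 20.6, 18.8 and 16.6 FPKM in DMSO, 33.2, 12.4 and 33.7 in pEGFP-N1, 11.8, 11 and 11.3 in BX795, and 33.8, 13.2 and 12.6 in BX795+pEGFP-N1 replicates 1, 2 and 3. The high libraries were pEGFP-N1 replicates 1 and 3 and the library labelled BX795+pEGFP-N1 replicate 1, and every other library that received BX795 or plasmid by its label lay below all 3 DMSO libraries. The library labelled pEGFP-N1 replicate 2 was thus on the low side of DMSO and its group mates on the high side.

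With all 12 libraries, Mlkl did not pass the test in any comparison (limma on log2(FPKM + 1), Benjamini-Hochberg adjustment over the 10412 genes). The log2 fold change was 0.36 for pEGFP-N1 against DMSO (SE 0.38, adjusted p = 0.9997) and -0.67 for BX795 against DMSO (SE 0.38, adjusted p = 0.436). BX795 and DMSO libraries did not overlap for Mlkl, and its exact permutation p of 0.1 is the smallest that 3 against 3 libraries can give. The BX795 difference involves neither of the doubtful libraries, but their spread enters the error: fitted on the 6 DMSO and BX795 libraries alone, the same -0.67 had an SE of 0.07 and an adjusted p of 0.000653 in limma. Over the 10 libraries, Mlkl was higher in pEGFP-N1 than in DMSO by 0.81 (SE 0.08, adjusted p = 0.000124 in limma). It was lower in BX795+pEGFP-N1 than in pEGFP-N1 by a log2 fold change of -1.31 (SE 0.09, adjusted p = 4.24e-06 in limma), against -0.41 (SE 0.38, adjusted p = 0.959) with all 12.

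In BX795+pEGFP-N1, Mlkl was just above its BX795 level in replicates 2 and 3 and far above it in the library labelled replicate 1. BX795+pEGFP-N1 against BX795 gave a log2 fold change of 0.61 (SE 0.38, adjusted p = 0.604 in limma) over the 12 libraries and 0.17 (SE 0.08, adjusted p = 0.346) over the 10. The libraries of the groups did not overlap, with BX795+pEGFP-N1 from 12.6 FPKM upward and BX795 at most 11.8 FPKM. A p that misses the threshold does not show that the levels were the same.

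Zbp1, the nucleic acid sensor, was near the lower limit of the table in most libraries. Zbp1 (Entrez 58203) lies on the minus strand of chromosome 2 at 173206612 to 173218923 (GRCm38). It was at 0.19, 0.08 and 0.15 FPKM in DMSO, 4.10, 0.23 and 3.54 in pEGFP-N1, 0.12, 0.15 and 0.17 in BX795, and 4.79, 0.03 and 0.16 in BX795+pEGFP-N1 replicates 1, 2 and 3. The 3 libraries above 1 FPKM were those in which Mlkl and Ifit1 were highest. All 3 pEGFP-N1 libraries were above all 3 DMSO libraries, though replicate 2 exceeded the highest DMSO library only by 0.23 against 0.19 FPKM.

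For pEGFP-N1 against DMSO, Zbp1 had a log2 fold change of 1.42 on the log2(FPKM + 1) scale over the 12 libraries (SE 0.62). Over the 10 libraries the same value was 2.08 (SE 0.11). BX795+pEGFP-N1 against pEGFP-N1 gave -0.68 (SE 0.62) with 12 libraries and -2.14 (SE 0.12) with 10. With 12 libraries the filter admitted Zbp1 only through its high libraries. It reached 1 FPKM in only 2 of the 10 libraries, too few for the filter. The choice of libraries also fixed the direction of the values over the 10. All these values of Zbp1 are therefore given with no test. A pseudocount of 1 understates the change of a gene this low. Where cells responded unevenly, fewer responding cells and less RNA per cell cannot be told apart in these bulk samples.

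Whether the plasmid effect differed with BX795 was tested as an interaction. With 12 libraries the difference (plasmid effect with BX795 minus that without) was 0.25 for Mlkl (SE 0.54, adjusted p = 0.909 in limma). It was -0.69 for Zbp1 (SE 0.87), given with no test. With 10 libraries the difference was -0.65 for Mlkl (SE 0.11, adjusted p = 0.0166 in limma), so the sign for Mlkl turned. It was -2.15 for Zbp1 (SE 0.15), again with no test, for the reasons given above. The libraries left out were those in which both genes departed from their group mates, so these values describe the other 10 libraries only.

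**Figure D2:**
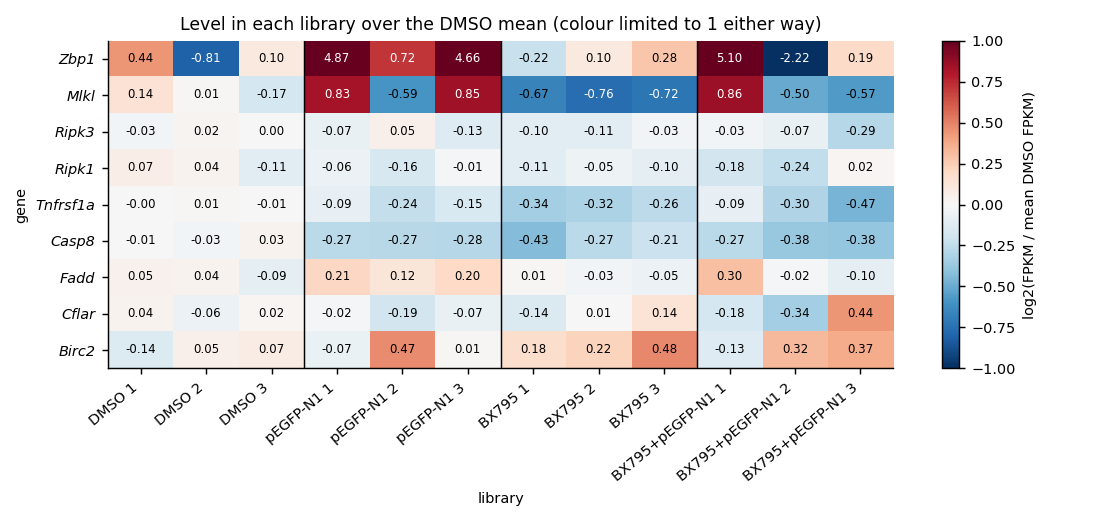
Level of each of the 9 genes in each library as log2 of its FPKM over the mean FPKM of the 3 DMSO libraries. Colours stop at 1 in either direction and numbers give the values, with vertical lines between the labelled groups. Mlkl and Zbp1 share 3 high libraries, Casp8 was below the DMSO mean in all 9 treated libraries, and the Zbp1 ratios outside the 3 high libraries rest on levels of at most 0.23 FPKM.

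Among the tested genes, those whose pattern over the 12 libraries was close to that of Mlkl included Tmem41a (Pearson r = 0.98, Spearman rho = 0.97), Socs2, an inhibitor of cytokine signalling (0.98, 0.92), Mrps2, encoding a mitochondrial ribosomal protein (0.97, 0.94), and Ptgir, encoding the prostacyclin receptor (0.97, 0.92). For Zbp1 the closest were the chemokine gene Ccl4 (0.996, 0.72), the interferon-induced Ifit3b (0.996, 0.71), Tmem229b (0.995, 0.68), the plasminogen activator gene Plat (0.995, 0.67) and the antiviral Rsad2 (0.995, 0.54). The rank correlations were lower for Zbp1, 9 of whose 12 values lay near 0. Pearson r for these genes over the 10 libraries was 0.967 to 0.974 with Mlkl and 0.994 to 0.997 with Zbp1, and rho was 0.92 to 0.98 and 0.52 to 0.60. The correlations are a description with no p, over libraries that share their conditions.

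The promoter windows of the members were searched for letters bound by interferon-activated factors, because Mlkl and Zbp1 shared their high libraries. RefSeq promoter windows (GRCm38.p6, 250 bases before to 50 after each start) were in the table for every listed gene but Zbp1. The letters GAAA, any 2 bases and GAAA, the core of the interferon-stimulated response element, and TTCNNNGAA, the gamma-activated site, were searched on both strands and occurred in 3.44% and 8.3% of all 32851 windows. The Mlkl window (chr8:111338156-111338455, minus strand), the second of the 2 Ripk1 windows (chr13:34002624-34002923, plus strand) and the Cflar window (chr1:58711241-58711540, plus strand) are shown to set the variable gene beside steadier ones that hold matches, with matches in capitals.
Mlkl: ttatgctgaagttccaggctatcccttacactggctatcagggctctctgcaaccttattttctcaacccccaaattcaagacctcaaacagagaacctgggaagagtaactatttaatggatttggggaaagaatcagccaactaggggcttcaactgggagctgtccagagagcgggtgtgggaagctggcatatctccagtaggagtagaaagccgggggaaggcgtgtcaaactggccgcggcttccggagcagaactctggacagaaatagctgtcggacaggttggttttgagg
Ripk1: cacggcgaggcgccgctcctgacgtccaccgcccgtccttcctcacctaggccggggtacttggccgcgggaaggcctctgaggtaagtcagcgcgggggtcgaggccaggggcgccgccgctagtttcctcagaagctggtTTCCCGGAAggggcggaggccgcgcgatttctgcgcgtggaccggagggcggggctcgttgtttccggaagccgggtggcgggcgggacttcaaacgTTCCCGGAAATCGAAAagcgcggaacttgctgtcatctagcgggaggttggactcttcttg
Cflar: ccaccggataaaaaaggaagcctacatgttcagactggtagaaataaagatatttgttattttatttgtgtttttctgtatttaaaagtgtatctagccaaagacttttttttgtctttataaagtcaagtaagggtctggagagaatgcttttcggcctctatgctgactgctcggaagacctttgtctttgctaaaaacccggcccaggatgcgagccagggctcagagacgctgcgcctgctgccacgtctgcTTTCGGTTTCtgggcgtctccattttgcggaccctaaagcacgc
The Mlkl window held neither motif. The second Ripk1 window held GAAATCGAAA from base -5 relative to the start and TTCCCGGAA from bases -108 and -11, of which the second overlaps the first motif. The Cflar window held TTTCGGTTTC, the reverse complement of the first motif, from base 6 after the start. Tnfrsf1a held TTCCGTGAA from base -244, and the first Ripk1 window (chr13:34002113-34002412, plus strand) and the windows of Ripk3, Casp8, Fadd, Birc2 and Cyld held neither. A match is only a description, and the absence of a match says only that these letters are not in this window.

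Tnfrsf1a and Fadd, a receptor and an adaptor of death receptor complexes, did not pass the test in any comparison with all 12 libraries. Tnfrsf1a, the receptor that recruits the TNF complex, was at 60.2, 60.5 and 59.9 FPKM in DMSO, 56.8, 51.1 and 54.3 in pEGFP-N1, 47.6, 48.3 and 50.3 in BX795, and 56.8, 48.8 and 43.6 in BX795+pEGFP-N1. All 9 treated libraries lay below all 3 DMSO libraries, and the BX795 libraries lay below the pEGFP-N1 libraries too. The log2 fold change of BX795 against DMSO was -0.30 (SE 0.08, unadjusted p = 0.00395, adjusted p = 0.219 in limma) with all 12 libraries, and an adjusted p of 0.00469 was reached over the 10 and of 0.00151 over the 6 libraries compared. The BX795 effect averaged over both plasmid states was -0.21 (adjusted p = 0.338 in limma; exact permutation p = 0.02 within plasmid states) and -0.28 over the 10 libraries (adjusted p = 0.00068). In transfected cells BX795 gave -0.12 (adjusted p = 0.959 in limma) and, over the 10 libraries, -0.26 (adjusted p = 0.0189).

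Fadd, the adaptor that links death receptors to caspase-8, was at 6.10, 6.07 and 5.56 FPKM in DMSO, 6.84, 6.44 and 6.80 in pEGFP-N1, 5.95, 5.80 and 5.69 in BX795, and 7.27, 5.82 and 5.52 in BX795+pEGFP-N1. The pEGFP-N1 libraries were above all DMSO libraries, and the highest value was in the library labelled BX795+pEGFP-N1 replicate 1. The log2 fold change of pEGFP-N1 against DMSO was 0.16 (SE 0.09, adjusted p = 0.9997 in limma), with an adjusted p of 0.191 over the 10 libraries, so Fadd did not pass in either. An opposite-strand gene, Faddos, overlaps Fadd in the annotation, as Gm45712 does Mlkl and Serpinb6a does Ripk1, and reads of such pairs cannot be told apart if strand was not used.

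Caspase-8, which cleaves RIPK1 and RIPK3 and so holds necroptosis in check, had lower transcript levels in all treated libraries. Casp8 was at 11.5, 11.3 and 11.8 FPKM in DMSO, 9.56, 9.52 and 9.45 in pEGFP-N1, 8.52, 9.57 and 9.93 in BX795, and 9.56, 8.86 and 8.82 in BX795+pEGFP-N1. The 9 treated libraries did not reach the lowest DMSO library, and the 3 treated groups overlapped with each other. The library labelled pEGFP-N1 replicate 2 was in this case like its group mates. Casp8 had a log2 fold change of -0.25 for pEGFP-N1 against DMSO (SE 0.07, unadjusted p = 0.00343, adjusted p = 0.51 in limma) and -0.28 for BX795 against DMSO (SE 0.07, unadjusted p = 0.00175, adjusted p = 0.167). Over the 10 libraries the adjusted p was 0.0818 for the plasmid and 0.0171 for BX795. Averaged over both plasmid states the BX795 effect was -0.17 (adjusted p = 0.338 in limma; exact permutation p = 0.02), and -0.19 over the 10 libraries (adjusted p = 0.0168). In transfected cells alone BX795 gave -0.06 over the 12 libraries (exact permutation p = 0.4). Over the 10, Casp8 was at 8.86 and 8.82 FPKM in BX795+pEGFP-N1 and at 9.56 and 9.45 FPKM in pEGFP-N1. The comparisons of pEGFP-N1 and of BX795 share the DMSO libraries, so their common direction for Casp8 is not 2 independent observations.

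Cflar, whose product cFLIP pairs with caspase-8 and restrains its activity, lies beside Casp8 on chromosome 1 (58711508 to 58758884, with Casp8 at 58795374 to 58847503, both on the plus strand of GRCm38) but did not share its pattern. Its levels were 10.1, 9.43 and 10 FPKM in DMSO, 9.71, 8.65 and 9.36 in pEGFP-N1, 8.92, 9.90 and 10.9 in BX795, and 8.71, 7.80 and 13.4 in BX795+pEGFP-N1. Every group overlapped with every other, and both extremes, 7.80 and 13.4 FPKM, were in BX795+pEGFP-N1, the higher in replicate 3, which also stood apart in summed FPKM. Cflar had a log2 fold change of -0.08 for pEGFP-N1 against DMSO (SE 0.15, adjusted p = 0.9997 in limma) and of -0.04 over the 10 libraries (SE 0.16, adjusted p = 0.924).

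Birc2 encodes cIAP1, a ubiquitin ligase that modifies RIPK1 in the receptor complex and thereby favours survival. It was at 4.04, 4.60 and 4.67 FPKM in DMSO, 4.24, 6.15 and 4.48 in pEGFP-N1, 5.01, 5.18 and 6.20 in BX795, and 4.05, 5.55 and 5.74 in BX795+pEGFP-N1. The library labelled pEGFP-N1 replicate 2 lay with the BX795 libraries, and the library labelled BX795+pEGFP-N1 replicate 1 lay next to the lowest DMSO library. BX795 against DMSO gave 0.25 (SE 0.14, adjusted p = 0.436 in limma), and the adjusted p was 0.0755 over the 10 libraries. The BX795 effect averaged over both plasmid states was 0.14 with 12 libraries (adjusted p = 0.553 in limma) and 0.28 with 10 (adjusted p = 0.00939). Of the 31-base stretches of Birc2 transcripts, 2.69% also occur in another gene, most often its paralog Birc3. The share was 9.26% for Cflar, 8.36% for Casp8 and 5.88% for Ripk1, so a small part of their reads could be split between genes.

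The RHIM kinases were the steadiest of the genes. Ripk1 was at 17.9, 17.5 and 15.8 FPKM in DMSO, 16.4, 15.3 and 16.9 in pEGFP-N1, 15.9, 16.5 and 16.0 in BX795, and 15.04, 14.4 and 17.4 in BX795+pEGFP-N1, with all groups overlapping. Ripk3 was at 36.5, 37.8 and 37.3 FPKM in DMSO, 35.4, 38.6 and 34.03 in pEGFP-N1, 34.6, 34.5 and 36.5 in BX795, and 36.5, 35.4 and 30.5 in BX795+pEGFP-N1. The Ripk3 libraries of BX795 lay just below those of DMSO, the nearest pair at 36.45 and 36.53 FPKM. BX795 against DMSO gave -0.08 for both Ripk1 (SE 0.08) and Ripk3 (SE 0.07), neither past the test in limma with 12, 10 or 6 libraries.

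With all 12 libraries, 0 of the 8 genes other than Zbp1 passed an adjusted p under 0.05 in limma in any of the 7 comparisons. Over all tested genes 0.0672% passed for pEGFP-N1 against DMSO, 0.0672% for BX795 against DMSO and 0 genes in each of the other 5. At an unadjusted p under 0.05 in limma, pEGFP-N1 against DMSO had 1 gene lower (Casp8), where 2.11% of all tested genes were lower, and BX795 against DMSO had 2 lower (Casp8 and Tnfrsf1a), where 5.4% of all tested genes were lower. The averaged BX795 effect had the same 2 lower, where 4.56% were. The averaged plasmid effect had 1 lower (Casp8), where 3.12% were. The interaction had 1 higher (Casp8), where 1.51% were. BX795+pEGFP-N1 had 0 such genes against BX795, where 5.56% passed, and 0 against pEGFP-N1, where 1.59% passed. Zbp1 was left out of the counts of this paragraph and the next, since the filter admitted it only through its high libraries. By the separation of the groups alone, 3 of the 8 genes other than Zbp1 did not overlap between pEGFP-N1 and DMSO (Fadd higher, Casp8 and Tnfrsf1a lower), against 12.9% of tested genes. The count was 5 of 8 between BX795 and DMSO (Birc2 higher, Ripk3, Mlkl, Casp8 and Tnfrsf1a lower), against 39.8%. It was 1 of 8 between BX795+pEGFP-N1 and BX795 (Mlkl higher), against 10.7%, and 0 of 8 between BX795+pEGFP-N1 and pEGFP-N1, against 2.8%. With fewer libraries to separate, the counts over the 10 were 5 of 8 for pEGFP-N1 against DMSO, where 51.6% of tested genes did not overlap, 1 for BX795+pEGFP-N1 against BX795, where 17.7% did not, and 5 for BX795+pEGFP-N1 against pEGFP-N1, where 57.4% did not.

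Over the 10 libraries Zbp1 was not counted, and of the other 8 genes 1 passed for pEGFP-N1 against DMSO (Mlkl, higher), where 2.2% of tested genes were higher, and 3 for BX795 against DMSO (Mlkl, Casp8 and Tnfrsf1a, all lower), where 5.12% were lower. For BX795+pEGFP-N1 against pEGFP-N1 the count was 2 (Mlkl and Tnfrsf1a, both lower), where 7.6% of tested genes were lower. For BX795+pEGFP-N1 against BX795 it was 0, as for all tested genes in limma. For the averaged BX795 effect it was 4 (Birc2 higher, Mlkl, Tnfrsf1a and Casp8 lower), where 33.8% passed. Mlkl also passed for the averaged plasmid effect, higher, where 2.05% were, and for the interaction, lower, where 1.18% were. Fitted on the 6 DMSO and BX795 libraries alone, Mlkl, Casp8 and Tnfrsf1a passed for BX795 against DMSO, where 7.97% of tested genes were lower.

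**Figure D3:**
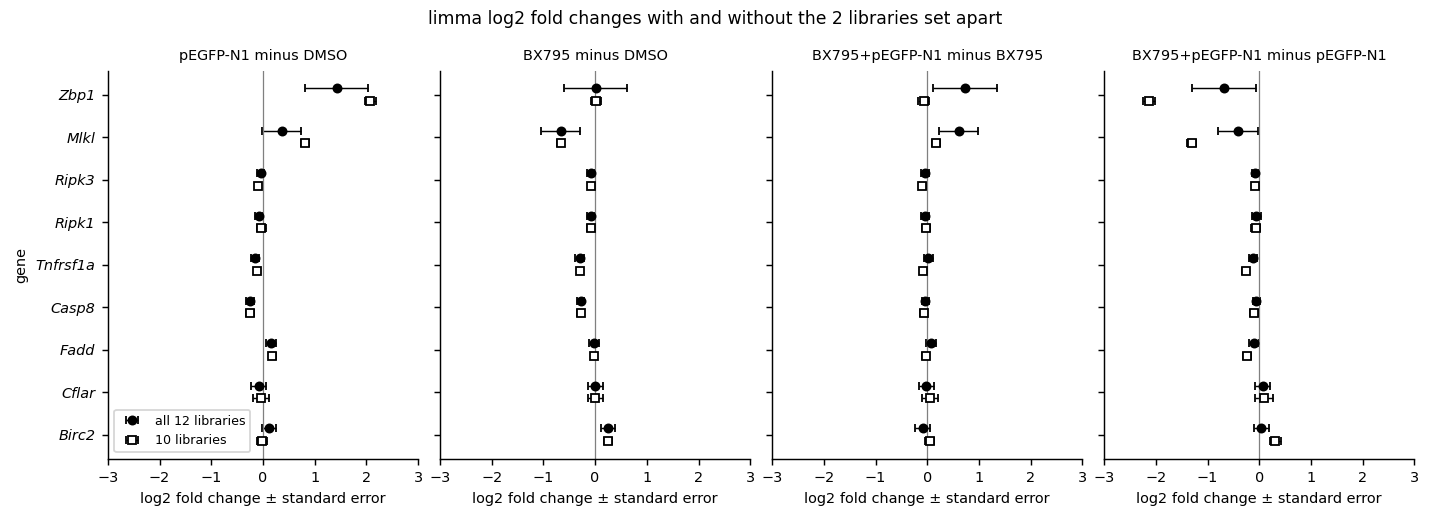
limma log2 fold changes of the 9 genes on the log2(FPKM + 1) scale in 4 comparisons, with bars of 1 standard error. Filled circles are the fit to all 12 libraries and open squares the fit to the 10 libraries without the library labelled pEGFP-N1 replicate 2 and the library labelled BX795+pEGFP-N1 replicate 1. Mlkl and Zbp1 moved most between the fits, from -0.41 to -1.31 and from -0.68 to -2.14 for BX795+pEGFP-N1 against pEGFP-N1.

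Other genes of the pathway were taken from a list of 78 ligands, receptors, adaptors, ubiquitin enzymes, necrosome cofactors, membrane repair factors, caspases and nucleic acid sensors, of which 75 were in the table and 68 were tested. With all 12 libraries, 0 of the 68 passed in any comparison in limma, and their median log2 fold change was 0.01 for pEGFP-N1 against DMSO (-0.03 over the 10 libraries) and 0.05 for BX795 against DMSO. At an unadjusted p under 0.05 in limma, 3 were higher and 1 lower for pEGFP-N1 against DMSO, where 2.57% of all tested genes were higher and 2.11% lower. For BX795 against DMSO, 13 were higher and 1 lower, where 8.45% and 5.4% of all tested genes were. Fitted on the 6 DMSO and BX795 libraries alone, 13 were higher and 1 lower in BX795 than in DMSO, where 12.7% of all tested genes were higher and 7.97% lower. The 13 were Fas, Ifnar2, Tradd, Traf2, Traf1, Rbck1, Tnfaip3, Tnip1, Optn, Usp21, Ppm1b, Aurka and Casp4, and the 1 was Pgam5, encoding a mitochondrial phosphatase. Over the 10 libraries the counts were 11 higher and 0 lower for BX795 against DMSO (8.96% and 5.12% of tested genes), and 14 higher and 4 lower for BX795+pEGFP-N1 against pEGFP-N1 (10.5% and 7.6%). Plasmid transfection alone gave 1 higher (Adar, an RNA-editing enzyme that limits Zbp1 activation) and 1 lower (Tlr4) over the 10 libraries, where 2.2% and 1.56% of tested genes passed.

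The 8 list genes with the widest log2 range over the libraries were Tnfaip3, Traf1, Fas, Optn, Tnip1, Tradd, Tnf and Casp12. Tnfaip3, encoding the ubiquitin-editing enzyme A20, was at 1.22, 1.26 and 1.40 FPKM in DMSO, 2.13, 4.09 and 2.07 in pEGFP-N1, 7.07, 4.71 and 4.40 in BX795, and 2.41, 7.06 and 6.13 in BX795+pEGFP-N1. All 3 BX795 libraries were above every DMSO library, and the library labelled BX795+pEGFP-N1 replicate 1 was below its group mates. The log2 fold change of Tnfaip3 for BX795 against DMSO was 1.46, with an adjusted p of 0.108 in limma over 12 libraries and 0.000285 over the 6.

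Tnip1, encoding the A20-binding protein ABIN1, was at 39.5, 40.6 and 38.0 FPKM in DMSO, 38.5, 63.5 and 40.8 in pEGFP-N1, 65.7, 63.0 and 64.3 in BX795, and 37.8, 72.3 and 64.7 in BX795+pEGFP-N1. Traf1, an adaptor of TNF receptors, was at 1.66, 1.68 and 1.92 FPKM in DMSO, 1.46, 4.69 and 1.01 in pEGFP-N1, 4.65, 4.79 and 4.43 in BX795, and 1.37, 4.22 and 3.35 in BX795+pEGFP-N1. For both genes the library labelled pEGFP-N1 replicate 2 lay with BX795 and the library labelled BX795+pEGFP-N1 replicate 1 lay below the lowest DMSO library.

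The log2 fold change for BX795 against DMSO was 0.69 for Tnip1 (adjusted p = 0.253 in limma over 12 libraries, 6.1e-05 over 6) and 1.03 for Traf1 (0.275 and 7.94e-05). Fas, a death receptor, was at 0.39 to 0.69 FPKM in DMSO and 2.22 to 2.69 FPKM in BX795, a log2 fold change of 1.13 (adjusted p = 0.183 in limma over 12 libraries, 0.000222 over 6). Optn, encoding the ubiquitin-binding protein optineurin, was at 9.15 to 10.03 FPKM in DMSO and 14.0 to 15.1 FPKM in BX795 (0.55, adjusted p = 0.301 and 0.000355). Tradd, an adaptor bound by the TNF receptor, was at 9.97 to 10.4 FPKM in DMSO and 11.3 to 14.1 FPKM in BX795 (0.31, adjusted p = 0.433 and 0.0231). Tnf itself ranged from 0.6 to 1.6 FPKM over all libraries and Casp12 from 10.3 to 17.3 FPKM, and neither passed for BX795 against DMSO in these fits.

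**Figure D4:**
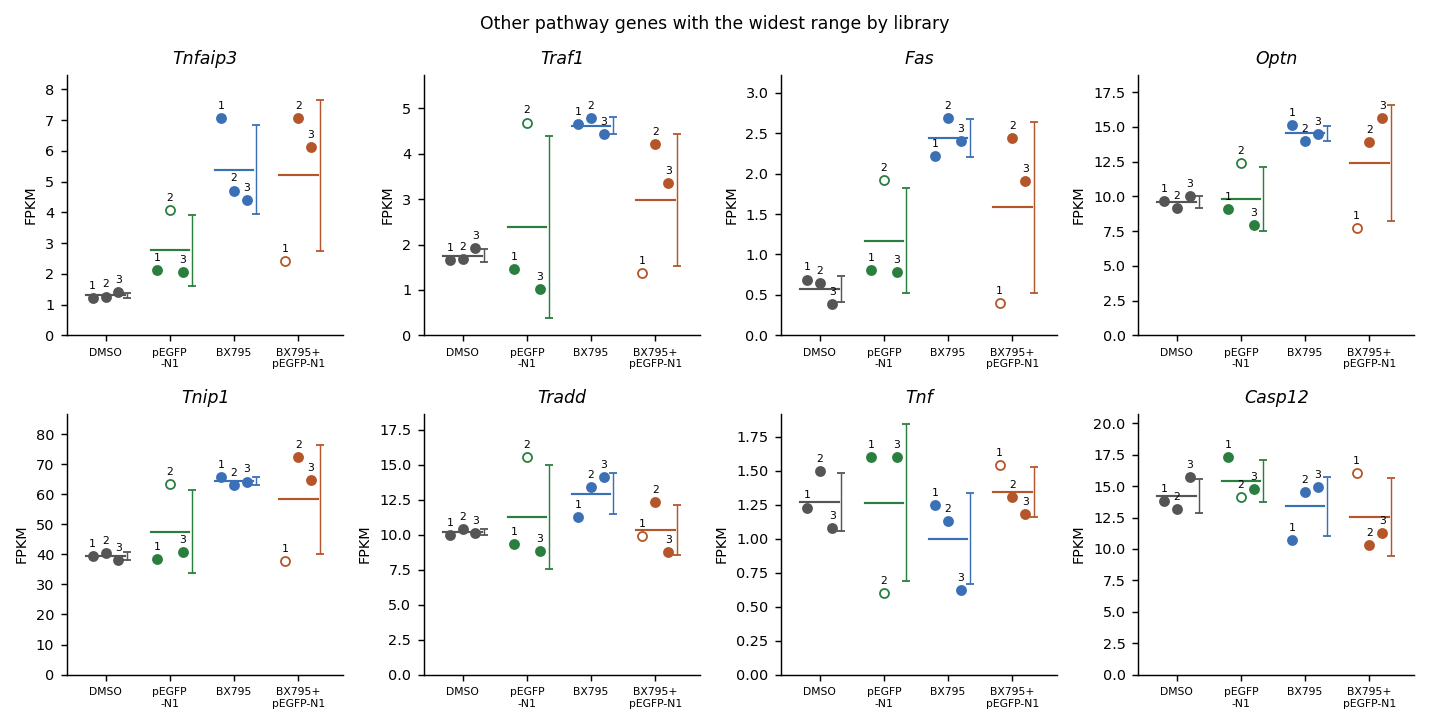
FPKM of the 8 other pathway genes with the widest range over the 12 libraries, by labelled group, drawn with replicate numbers, group means, bars of 1 SD and open points for the same 2 libraries. Tnfaip3, Traf1, Fas, Optn and Tnip1 were higher in all 3 BX795 libraries than in all 3 DMSO libraries, and for these genes the open points lay away from their group mates.

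The labelled cell type was checked against markers. Of 10 fibroblast markers 9 were in the table and 8 were tested, whereas Thy1 was at most 0.13 FPKM. The summed level of the fibroblast markers ranged from 6754 to 6992 FPKM in DMSO, 5871 to 7044 in pEGFP-N1, 6432 to 7236 in BX795 and 5627 to 6607 in BX795+pEGFP-N1. Of the 9, Col1a1, Col1a2, Col3a1, Fn1 and Pdgfrb, named after their values were seen, were lowest in the 3 libraries in which Mlkl was highest. The others did not share this pattern. Col5a1 was at 36.2 FPKM in pEGFP-N1 replicate 3, above DMSO (at most 35.6 FPKM). Vim and S100a4 were at 1576 and 3850 FPKM in BX795+pEGFP-N1 replicate 3, against 1913 and 3921 FPKM in the library labelled replicate 1. Thy1 was near 0. Pdgfrb, for instance, was at 20.6, 21.5 and 22.2 FPKM there and at least 30.6 FPKM in the other 9, and Col1a2 at 27.6, 26.5 and 26.6 FPKM against at least 34.9 FPKM. All 4 epithelial, 3 endothelial and 3 adipocyte markers were under 1 FPKM, although the label of origin names adipose tissue. Of 7 leukocyte markers 6 were under 1 FPKM, among them the defining Ptprc and Adgre1 at most 0.01 and 0.04 FPKM. The exception was Cd68, at 111 to 138 FPKM, which was highest in the 3 libraries in which Mlkl was highest (135, 132 and 138 FPKM). The part of these markers in the Mlkl and Zbp1 results was not tested.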

How the data were processed

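RNA of 12 L929 libraries was sequenced by the study on BGISEQ-500. The authors deposited FPKM rounded to 2 decimals, estimated with RSEM after Bowtie2 2.2.5 alignment to GRCm38.p5 per the labels. The annotation is not given in the sources used here, and neither is the use of strand. Genes were named through Entrez identifiers, and coordinates came from GENCODE vM21 (GRCm38). Expression was fitted as log2(FPKM + 1) with limma 3.58.1 (R 4.3.3; 4 group means, empirical Bayes with trend) for genes that reached an FPKM of 1 in 3 or more libraries, and called at an adjusted p under 0.05. Single genes were compared by two-sided exact permutation tests in Python 3.11.15 (scipy 1.17.1), whose smallest p is 0.1 for 3 against 3 libraries and 0.005 for averaged effects (400 arrangements); 54 were run. The scripts were tested on simulated data.

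Named were all 10 members, the 8 list genes with the widest log2 range, any list gene passing the test, and the 5 genes most correlated with each member spanning at least 1 on the log2 scale, 1 of which is not reported here. The members and lists were chosen with earlier results of these data known. Replicate numbers were not treated as pairing the libraries.

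The study's thresholds were a log2 fold change of 2 or more with a false discovery rate not above 0.001. Its test on counts could not be run on FPKM.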

Additional observations from a re-analysis of the deposited data

Results flagged for a closer look

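The plasmid effect with BX795 minus that without was -0.645 for Mlkl (adjusted p = 0.0166 in limma) and -2.15 for Zbp1 on the log2(FPKM + 1) scale over the 10 libraries without the library labelled pEGFP-N1 replicate 2 and the library labelled BX795+pEGFP-N1 replicate 1. With all 12 libraries the values were 0.25 and -0.69, of opposite sign for Mlkl, which did not pass. The libraries were left out after their values were seen, and both genes departed from their group mates in them, so the values over the 10 libraries describe those libraries and do not show that the effect differs between the labelled groups. For Zbp1, which the filter admitted only through its high libraries and which reached 1 FPKM in only 2 of the 10, no test is given. In the same fit 1.27% of all tested genes passed.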

How the results depend on the processing

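The number of the 9 genes, Zbp1 included, passing an adjusted p under 0.05 in limma was 0 in all 7 comparisons under several alternatives. These were pseudocount 0.1, no filter, TPM, division by the 75th percentile, no trend and the study's thresholds. With a mean FPKM of at least 5, only 7 of the 9 genes were tested and 0 passed. Fitting only the groups compared gave 3 passing for BX795 against DMSO. Leaving out 1 library in turn gave 0 in every comparison except the averaged BX795 effect, where it gave 0 to 2, namely 1 without BX795+pEGFP-N1 replicate 1, where 406 of the 10412 tested genes passed, and 2 without pEGFP-N1 replicate 2, where 821 did. Leaving out both libraries, an alternative added after seeing the data, gave 2 for pEGFP-N1 against DMSO, 3 for BX795 against DMSO, 0 for BX795+pEGFP-N1 against BX795, 3 for BX795+pEGFP-N1 against pEGFP-N1, and 5, 2 and 2 for the averaged BX795 effect, the averaged plasmid effect and their interaction (3.76%, 14.1%, 0, 18.1%, 33.8%, 4.34% and 1.27% of all tested genes, in this order). These counts include Zbp1, which would fail the filter there, except for BX795 against DMSO and BX795+pEGFP-N1 against BX795. The interaction of Mlkl (0.25) ranged from -0.20 to 0.49 with 1 library left out, and was -0.20 without pEGFP-N1 replicate 2, -0.19 without BX795+pEGFP-N1 replicate 1 and -0.645 without both; the cause was not tested. The others of the 21 fold changes followed through the alternatives kept their sign in them. Fold changes not followed did not all do so. The number of the 9 genes with a positive fold change for BX795 against DMSO was 3 with all 12 libraries. It was 4 without DMSO replicate 1 and 1 without DMSO replicate 2. Single fold changes of the other pathway genes were not compared across all alternatives. With the replicate number as a block, 0 of the 9 genes passed in any comparison and the genes called for pEGFP-N1 against DMSO went from 7 to 5. In every pair of groups the mean r of deviations was higher for same-numbered libraries than for the others. It ranged from 0.019 against -0.0095 (DMSO with BX795+pEGFP-N1) to 0.353 against -0.205 (pEGFP-N1 with BX795+pEGFP-N1). Single same-numbered libraries went as low as r = -0.389. Whether the numbers mark pairs was not settled, and they were not treated as pairing. Genes called over the whole table ranged, with 1 library left out, from 0 to 17 for pEGFP-N1 against DMSO and from 0 to 149 for BX795 against DMSO, against 7 in each, and reached 391 and 1466 without both libraries. FPKM gives no depth, so counting error, which matters most for Zbp1, could not be separated from the spread between libraries.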
